A study of Homo sapiens with 6 samples.

Results

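The miR-15/16 family is a group of small regulatory RNAs that share most of their first bases and restrain the cell cycle. The members described here were the 7 entries of the deposited counts named hsa-miR-15a-5p, hsa-miR-15b-5p, hsa-miR-16-5p, hsa-miR-195-5p, hsa-miR-424-5p, hsa-miR-497-5p and hsa-miR-503-5p, out of 1247 mature miRNAs in all; the prefix is left out from here on. They were measured in exosomes, small vesicles shed into the culture medium. The vesicles came from H1299, a human cell line derived from a non-small cell lung cancer. The labels give the genotype as wild type in both groups, and the lines stably carried a short hairpin RNA that was either a control or directed at WDR4 (shWDR4). WDR4 is the partner of METTL1 in an enzyme that methylates guanosine in RNA. Both groups spent 48 hours in exosome-free medium before collection. The 3 biological repeats of a group, 6 libraries in all, had been joined by the authors into 1 count column per group. Neither the number of hairpins against WDR4 nor whether each line was a clone is stated in the labels. Mature miRNA counts do not measure the WDR4 transcript, and the knockdown itself was not analysed.

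Total counts were 1020282 in the control column and 552913 in the shWDR4 column. Levels are in counts per 1000000 counts of a column (CPM), and folds are shWDR4 over control. The 95% intervals are exact and cover counting error only: the spread between the 3 repeats is unknown, so no difference below has a replicate check, no p-value was computed, and each compares pooled columns rather than conditions. Fewer vesicles or cells of a kind and less of a miRNA in each cannot be told apart in such bulk samples, nor can sorting into exosomes be told from the level in the cells.

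A mature miRNA guides a silencing complex to messenger RNAs that pair with its seed, bases 2 to 8 from its 5′ end. Through the seed, which is the same or nearly the same in all of them, members of this family repress messages for D-type and E-type cyclins, the kinases they activate and the survival protein BCL2, and they slow entry into DNA synthesis. The gene pair miR-15a and miR-16-1 is known as a tumour suppressor that is often deleted in chronic lymphocytic leukaemia. A hairpin precursor gives a 5p and a 3p arm, of which usually 1 is kept and the other, the passenger, is degraded.

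The 7 members come from 8 hairpins on 4 chromosomes, since the same mature miR-16-5p is cut from both miR-16-1 and miR-16-2. The mature sequences are shown because the member whose fold went the other way from the rest, miR-503-5p, also differed in the seed. They are from RefSeq on GRCh38.p14, matched by name for all 7 members, written 5′ to 3′ with the seed in capitals.
miR-15a-5p: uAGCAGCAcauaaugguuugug
miR-15b-5p: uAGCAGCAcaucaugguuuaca
miR-16-5p: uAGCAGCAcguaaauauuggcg
miR-195-5p: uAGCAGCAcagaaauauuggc
miR-424-5p: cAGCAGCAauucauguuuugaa
miR-497-5p: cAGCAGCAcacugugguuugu
miR-503-5p: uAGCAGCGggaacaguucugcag

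The seed AGCAGCA was common to 6 members, and miR-503-5p carried AGCAGCG instead. Counted from the 5′ end, that is the change A8G from miR-16-5p to miR-503-5p. Among human mature miRNAs in RefSeq, 7 have the seed AGCAGCA, the 6 members and miR-6838-5p, which is not among the entries used here, and miR-503-5p alone has AGCAGCG. Outside the seed miR-16-5p and miR-195-5p are nearly identical, with the changes G10A and U11G and 1 base less in miR-195-5p, whereas miR-15a-5p and miR-15b-5p differ at 4 positions. The treatment of reads that match several members is not given in the sources used here, so the split between such pairs is uncertain.

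As a group, the 7 members took 10.6% of the control counts (107819 counts, exact interval 10.5 to 10.6) and 4.12% of the shWDR4 counts (22778 counts, 4.07 to 4.17), a 2.57-fold lower share (2.53 to 2.60). Nearly all of it was miR-16-5p, which made up 98.2% of the family in control (98.1 to 98.3) and 94.4% in shWDR4 (94.1 to 94.7). The sum of the other 6 members went the opposite way, from 1958 to 1274 counts, or from 0.192% (0.184 to 0.201) to 0.230% (0.218 to 0.243) of a column, 1.20-fold higher (1.12 to 1.29). The lower family sum therefore rests on miR-16-5p. Without miR-503-5p as well, the other 5 members summed to 1569 counts in control and 347 in shWDR4, 2.45-fold lower (2.18 to 2.76).

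**Figure D1:**
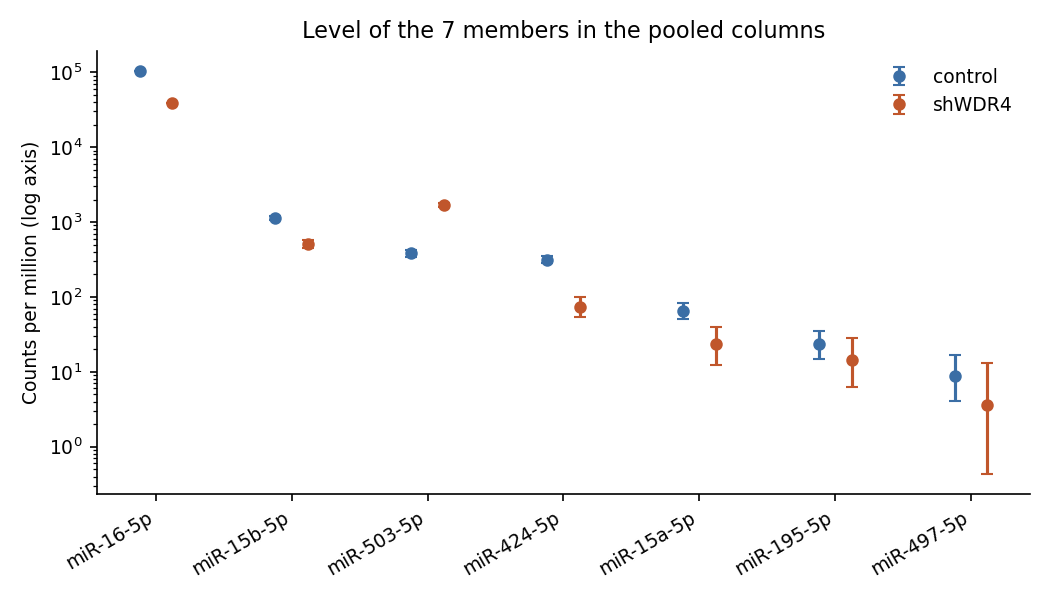
Level of each of the 7 members in the pooled control (blue) and shWDR4 (orange) columns, in CPM on a log axis. Points are the authors' pooled counts scaled to the column total and bars are exact 95% intervals of the count; miR-503-5p alone lies higher in shWDR4, at 1677 against 381 CPM.

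In control the order of the members ran from miR-16-5p through miR-15b-5p, miR-503-5p, miR-424-5p, miR-15a-5p and miR-195-5p down to miR-497-5p. The most abundant, miR-16-5p, ranked 2 of all entries at 103757 CPM, and miR-15b-5p ranked 77 at 1126 CPM (1062 to 1193). Next, miR-503-5p at 381 CPM (344 to 421) and miR-424-5p at 314 CPM (280 to 350) had intervals that overlap. The remaining 3 were rare, at 65.7 CPM (50.9 to 83.4) for miR-15a-5p, 23.5 CPM (15.1 to 35.0) for miR-195-5p and 8.82 CPM (4.03 to 16.7) for miR-497-5p, the last pair with overlapping intervals.

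In shWDR4 the order was the same except that miR-503-5p passed miR-15b-5p. It ranked 65 of all entries there against 128 in control, while miR-16-5p ranked 4 and miR-15b-5p 120. Below them miR-424-5p stood at 74.2 CPM (53.2 to 100.6), miR-15a-5p at 23.5 CPM (12.5 to 40.2), miR-195-5p at 14.5 CPM (6.25 to 28.5) and miR-497-5p at 3.62 CPM (0.438 to 13.1). The intervals of miR-15a-5p and miR-195-5p overlap, as do those of miR-195-5p and miR-497-5p. Ligation of adaptors can favour some small RNAs over others, so levels of different miRNAs are compared here as read counts and not as molecules.

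Of the 7 members, 5 had the 50 counts over both columns that were required for the 2-fold rule, and miR-195-5p and miR-497-5p did not. Among these 5, 4 were at least 2-fold lower and 1 at least 2-fold higher, where 31.5% and 26.1% of the 349 evaluated miRNAs were lower and higher by that much. These counts and shares move with the scaling. Without the 3 most abundant gained entries in the totals, described further on, 1 member rather than 4 was at least 2-fold lower and 1 was still higher. Of the 349, 49 rather than 110 were then lower and 117 rather than 91 higher. The median log2 fold was -1.42 over the 5 and -0.37 over the 349. The authors' deposited table marked the same number as lower, 4, and 1 as higher, against 14.6% and 20.7% of the 927 entries for which it gave a fold. Members that passed the minimum through their control counts, such as miR-15a-5p, could more easily be lower than higher, so these counts describe the members and support nothing further.

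**Figure D2:**
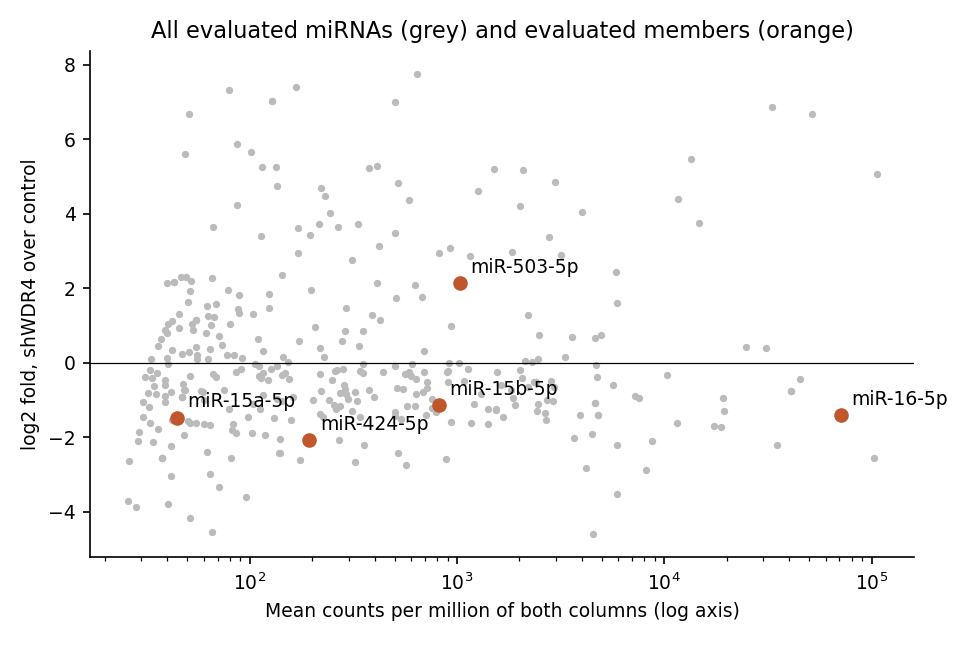
Log2 fold of shWDR4 over control against the mean level of both columns in CPM (log axis) for the 349 evaluated miRNAs (grey) and the 5 evaluated members (orange). The members span a log2 fold from -2.08 for miR-424-5p to 2.14 for miR-503-5p, and a 0 count was set to 3 counts.

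The miR-16 hairpins lie in 2 places, and their shared product was the member with by far the most reads. At chr13:50048973-50049061 on the minus strand, miR-16-1 lies in an intron of DLEU2, a non-coding RNA gene named for its deletion in leukaemia, 57 bases from miR-15a. At chr3:160404745-160404825 on the plus strand, miR-16-2 lies in an intron of SMC4, a subunit of the condensin complex that packs chromosomes for division, 59 bases from miR-15b. Counts of miR-16-5p were 105861 in control and 21504 in shWDR4, so the control column was the higher. Its CPM was 2.67-fold lower in shWDR4 (2.63 to 2.71), a log2 fold 1.05 below the median of all evaluated miRNAs, and 72 of the 349, itself included, were at least as low.

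Since miR-16-5p cannot be assigned to a hairpin, its partners and passenger arms are the only entries that separate the DLEU2 and SMC4 loci. The DLEU2 partner miR-15a-5p, which targets BCL2, came from chr13:50049119-50049201 and overlaps a DLEU2 exon in GENCODE release 29. Its counts were 67 in control and 13 in shWDR4, lower by 2.79-fold (1.53 to 5.52). The SMC4 partner miR-15b-5p, from an intron at chr3:160404588-160404685, had 1149 and 283 counts and was lower by 2.20-fold (1.93 to 2.51). Both partners were thus lower in shWDR4 and their fold intervals overlap.

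Ratios of entries within a column do not depend on how the columns are scaled. In all, 16 such pairs, of members and of other arms or neighbours, were compared with intervals not adjusted for their number. For each miR-15a-5p count there were 17.1 of miR-15b-5p in control and 21.8 in shWDR4, a 1.27-fold difference whose interval included no difference (0.682 to 2.54). For each miR-15a-5p count there were 1580 of miR-16-5p in control and 1654 in shWDR4, a ratio of 1.05 (0.573 to 2.07). At this depth no difference between the DLEU2 product and either of them was detectable, and these intervals leave room for a 2-fold one. Relative to miR-15b-5p, miR-16-5p was 1.21-fold less abundant in shWDR4 (1.06 to 1.38), with 92.1 counts per miR-15b-5p count in control and 76.0 in shWDR4.

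The passenger arms of these loci were close to the floor, the 3 counts per group that a count of 0 allows, which is 2.94 CPM for control and 5.43 CPM for shWDR4. At SMC4, miR-16-2-3p went from 0 counts in control to 9 in shWDR4. That is 5.54-fold higher with the 0 set to that floor, and the lower limit of the exact interval was 3.64. The other passenger there, miR-15b-3p, had 8 and 7 counts. At DLEU2, miR-15a-3p had 2 and 0 counts, too few for a fold, and miR-16-1-3p is not among the entries. Per 100 counts of miR-15b-5p, the passenger miR-15b-3p stood at 0.696 in control and 2.47 in shWDR4, a 3.55-fold higher ratio (1.09 to 11.3). The main arm miR-15b-5p was thus lower in shWDR4, and the fold of its passenger, 1.61, had an interval that included no difference (0.498 to 5.10).

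The cluster of miR-497 and miR-195, whose hairpins lie 209 bases apart and overlap exons of the host transcript MIR497HG on chromosome 17, was hardly present. Its members share the AGCAGCA seed and are known as growth-restraining miRNAs in several tumours. Counts of miR-195-5p were 24 in control and 8 in shWDR4, and those of miR-497-5p were 9 and 2. Together their CPM was 1.79-fold lower (0.861 to 4.07), an interval that includes no difference. Even in control there was 0.0227 of a miR-195-5p count per 100 counts of miR-16-5p, and in shWDR4 0.0372. Whether reads of the near-identical miR-16-5p were assigned to miR-195-5p was not tested.

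The remaining 2 members come from an X chromosome cluster, and there the family divided. The hairpins of miR-424 and miR-503 lie 215 bases apart on the same strand, within the span of the non-coding gene MIR503HG, with miR-424 overlapping an exon and miR-503 in an intron. Both miRNAs are known to slow the cell cycle, and miR-503 to repress cyclin D1. Their hairpins are shown because the arms within them behaved differently, with the 5p arm and then the 3p arm in capitals (RefSeq, GRCh38.p14, minus strand, chrX:134546614-134546711 for MIR424 and chrX:134546328-134546398 for MIR503).
MIR424: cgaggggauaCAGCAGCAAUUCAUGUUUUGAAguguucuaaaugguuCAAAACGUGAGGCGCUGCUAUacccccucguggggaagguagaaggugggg
MIR503: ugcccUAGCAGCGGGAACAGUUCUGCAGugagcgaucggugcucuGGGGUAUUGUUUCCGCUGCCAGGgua

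Counts of miR-424-5p were 320 in control and 41 in shWDR4, the largest of the lower folds among the 5 evaluated members, at 4.23-fold (3.05 to 6.01). Counts of miR-503-5p were 389 in control and 927 in shWDR4, so that it was higher even before scaling, and its CPM was 4.40-fold higher (3.90 to 4.96). Of the 349 evaluated miRNAs, 59 had a higher fold. In control there were 1.22 counts of miR-503-5p per count of miR-424-5p and in shWDR4 22.6, an 18.6-fold change of that ratio (13.1 to 26.9).

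Scaled to the column totals, both arms of each hairpin went the same way, and to a different extent. For miR-424 the 3p arm was the more abundant, with 693 counts in control and 231 in shWDR4, lower by 1.63-fold (1.40 to 1.90). Relative to the median of all evaluated miRNAs, the log2 fold of miR-424-3p was -0.33. Without the 3 most abundant gained entries in the totals, described further on, every log2 fold is 0.66 higher. That brings miR-424-3p near no difference. The ratio of the 3p to the 5p arm was 2.17 in control and 5.63 in shWDR4. This is 2.60-fold higher (1.81 to 3.82), so the 5p arm was the more reduced. For miR-503 the 3p arm went from 0 counts in control to 25 in shWDR4. That is 15.4-fold higher with the 0 set to the floor, and the lower limit of the exact interval was 11.6. Per 100 counts of miR-503-5p these are 0 in control, where the floor allows up to 0.771, and 2.70 in shWDR4. The authors' deposited table marked miR-503-3p as higher and left miR-424-3p unmarked, since its normalized log2 fold of -0.70 lay within 2-fold.

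Further along the cluster, miR-450a-5p was lower like miR-424. Its counts went from 77 in control to 3 in shWDR4, 13.9-fold lower (4.58 to 68.9), and 4 of the 349 evaluated miRNAs had a lower fold. Since miR-450a-5p passed the count minimum through its control counts, it could more easily be lower than higher. Its shWDR4 count equals the floor, so its rank describes this entry and supports nothing further. The ratio of miR-503-5p to miR-450a-5p was 5.05 in control and 309 in shWDR4, which is 61.2-fold higher (19.9 to 304.2). That ratio rests on the 3 counts of miR-450a-5p in shWDR4. Other neighbours were too rare to tell, with 6 and 1 counts for miR-542-3p and 6 and 6 for miR-542-5p, and 4 of the 7 neighbour names are not among the entries. Over all 7 measured arms the cluster went from 1491 to 1234 counts, a CPM 1.53-fold higher (1.42 to 1.65), of which miR-503-5p supplied 927 in shWDR4.

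**Figure D3:**
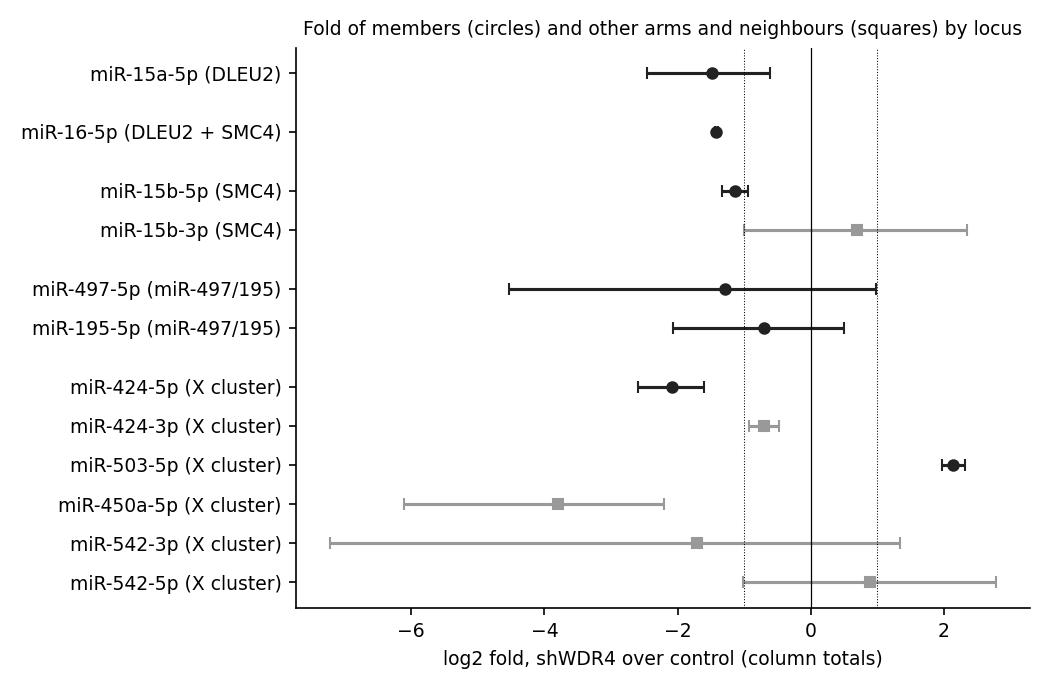
Log2 fold of shWDR4 over control, scaled to the column totals, of members (circles) and of other arms and cluster neighbours (squares), ordered by locus, with exact 95% intervals; dotted lines mark 2-fold. The X cluster spans from -3.80 for miR-450a-5p to 2.14 for miR-503-5p, and the DLEU2 and SMC4 members lie between -1.48 and -1.14; miR-503-3p and miR-16-2-3p, at 0 in control, and miR-15a-3p, at 0 in shWDR4, are not drawn.

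The composition of the family changed with miR-503-5p. Among the 6 members other than miR-16-5p, it made up 19.9% of the counts in control (18.1 to 21.7) and 72.8% in shWDR4 (70.2 to 75.2). The share of miR-15b-5p went from 58.7% (56.5 to 60.9) to 22.2% (20.0 to 24.6), and that of miR-424-5p from 16.3% (14.7 to 18.1) to 3.22% (2.32 to 4.34). Set against the abundant member, there were 0.367 counts of miR-503-5p per 100 of miR-16-5p in control and 4.31 in shWDR4, which is 11.7-fold higher (10.4 to 13.3). By reads, miR-16-5p still outnumbered miR-503-5p in shWDR4.

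A few very abundant entries of the shWDR4 column weigh on all folds scaled to the totals. The entries miR-3960, miR-6126 and miR-7704 went from 6297, 1022 and 576 counts in control to 113649, 56492 and 36296 in shWDR4. Without these 3 in the totals every log2 fold is 0.66 higher, and the median of all evaluated miRNAs becomes 0.30. The 6 members with the seed AGCAGCA then stayed below 0, at -0.75 for miR-16-5p, -0.47 for miR-15b-5p, -0.82 for miR-15a-5p, -1.42 for miR-424-5p, -0.62 for miR-497-5p and -0.04 for miR-195-5p. With that scaling miR-424-5p alone remained at least 2-fold lower, and the counting interval of miR-15a-5p reached 0 (-1.80 to 0.05), as did those of miR-195-5p and miR-497-5p with every scaling. The log2 fold of miR-503-5p became 2.80. Relative to the median of all evaluated miRNAs, which cancels the scaling, log2 folds were -1.71 for miR-424-5p, -1.12 for miR-15a-5p, -1.05 for miR-16-5p, -0.77 for miR-15b-5p and 2.50 for miR-503-5p.

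**Figure D4:**
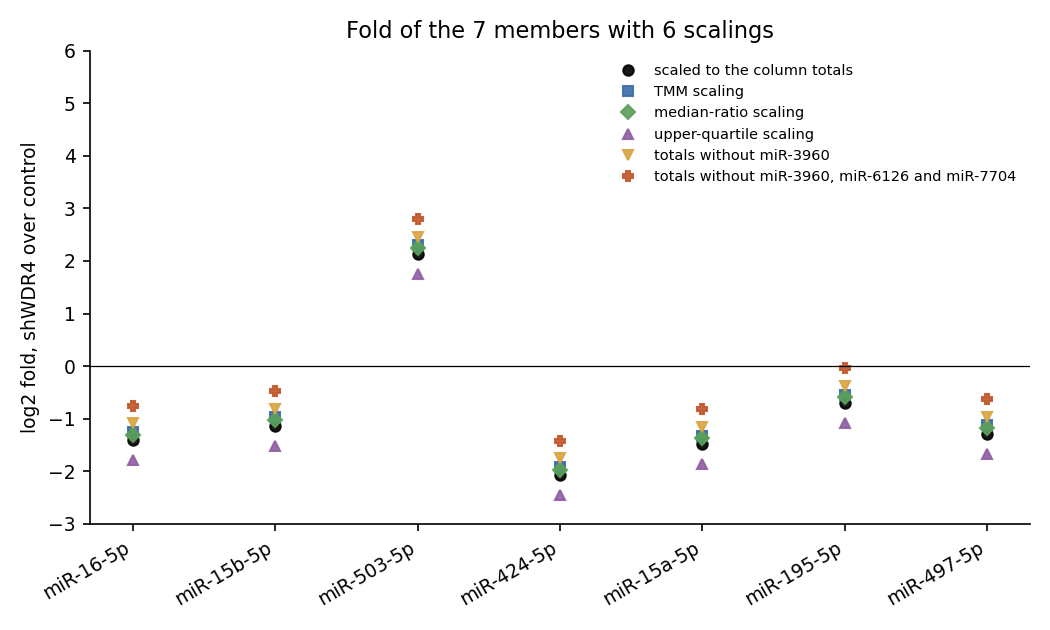
Log2 fold of shWDR4 over control of the 7 members with each of 6 scalings of the 2 columns. The sign of each point estimate was the same with all 6, though the counting intervals of miR-195-5p and miR-497-5p included 0 with each; miR-503-5p lay between 1.76 and 2.80, miR-16-5p between -1.80 and -0.75, and miR-195-5p came closest to 0 at -0.04.

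Base composition moved with the fold across the miRNAs measured here. G and C made up 36.4% of the bases of miR-424-5p, 40.9% of miR-15a-5p and of miR-15b-5p, 45.5% of miR-16-5p and 56.5% of miR-503-5p. Over the 311 evaluated miRNAs with a RefSeq sequence, Spearman's rho between this share and the log2 fold was 0.56, as a description of points that share the same 2 columns and their scaling. The 63 miRNAs under 45% had a median log2 fold of -1.41, and 3 members lie in that class. Of these miR-15a-5p (-1.48) and miR-15b-5p (-1.14) were near that median, while miR-424-5p (-2.08) was 0.67 below it, with 16 of the 63 lower still. For miR-16-5p, in the class from 45% to 55% with a median of -0.73, 20 of the 97 were lower. In the class from 55% to 65%, 10 of the 66 had a higher fold than miR-503-5p, whose log2 fold was 2.14 above the class median of -0.01. The part of base composition in these folds was not tested.

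**Figure D5:**
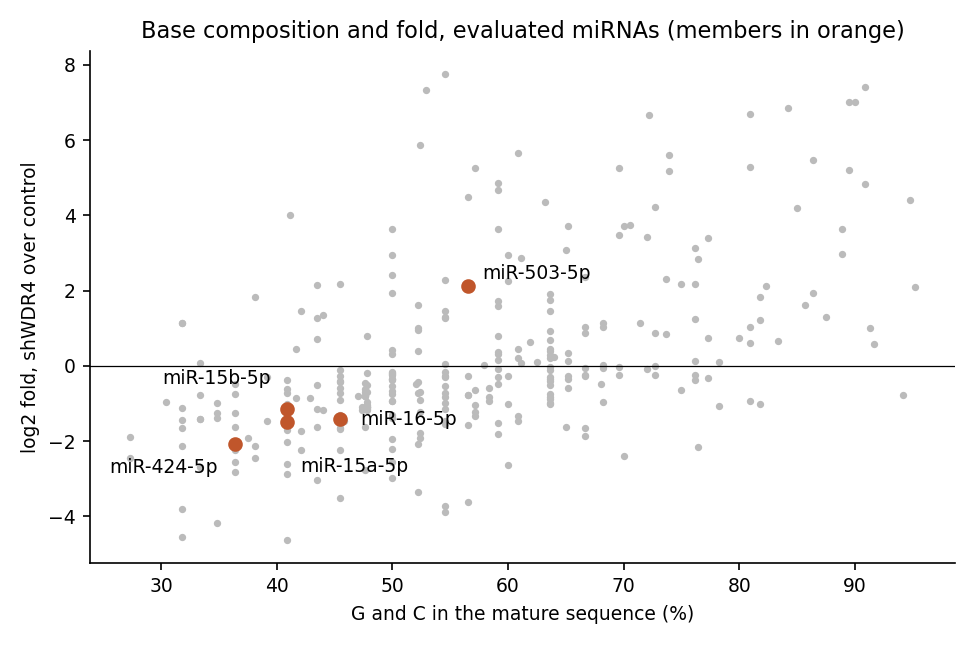
Log2 fold of shWDR4 over control against the percentage of G and C in the mature sequence for the 311 evaluated miRNAs with a RefSeq sequence (grey) and the 5 evaluated members (orange). The lower members lie at 36.4% to 45.5% among entries that are mostly lower, and miR-503-5p at 56.5% lies above most entries of like composition.

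Short motifs were then searched in the mature sequences. The letters GGG, searched on the mature strand, occur in miR-503-5p alone of the 7 members and in 33.2% of 2370 RefSeq human mature sequences. Evaluated miRNAs that hold GGG had a median log2 fold of 0.21 and those without it -0.73. The motif GGAG, described in exosome sorting and partly overlapping GGG where a further G precedes it, is in none of the 7 and in 15.7% of the 2370. Among the 311, 62 (19.9%) held GGAG. Their median log2 fold was 0.16 and that of those without it -0.47, a split in the same direction as for GGG. Both motifs consist mostly of G, and the share of G and C moved with the fold as given above. Motif and base composition were not separated, and these matches describe the letters only.

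Among other miRNAs with at least 1000 counts over both columns, 109 non-members with reads in both, the 3 nearest to miR-16-5p in log2 fold (-1.42) were miR-130a-3p at -1.41 and miR-7-5p and miR-3529-3p at -1.41. The last pair had identical counts, 7109 and 1452, and the division of reads between them is not known. Nearest to miR-503-5p (2.14) were miR-1303 at 2.43, miR-92a-1-5p at 1.61 and miR-4516 at 2.85, each further away than those of miR-16-5p. The likeness is that of 1 fold between 2 pooled columns.

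Since miR-16-5p and its partners are also abundant in blood cells, blood markers are given beside them. Of 9 marker names 8 were among the entries, and their counts summed to 739 CPM in control and 291 CPM in shWDR4, far under the 103757 and 38892 CPM of miR-16-5p. The red cell miR-451a was at 0 and 3 counts and miR-144-3p at 7 and 2, while miR-486-5p had 509 and 100. Counts were 42 and 11 for miR-486-3p, 100 and 3 for miR-142-3p, 54 and 17 for miR-142-5p and 18 and 7 for miR-223-3p. By CPM miR-150-5p went the other way, from 23.5 to 32.6 (24 and 18 counts), as did miR-451a. The blood sum rests mostly on miR-486-5p, which supplied 509 of its 754 control counts. The endothelial miR-126-3p and miR-126-5p summed to 10636 and 2248 CPM, and 2 of 5 epithelial names were found, with 45 and 7 counts in all. All 3 sums were lower in shWDR4, as was miR-16-5p, and the part of other cell types in its fold was not tested.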

How the data were processed

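Small RNA of exosomes from 6 H1299 cultures was sequenced, 3 per group per the labels. Per the file headers, each deposited column holds the whole-number counts of 3 joined libraries, not normalized by the authors. The submitters' processing notes name Bowtie, SAMtools, edgeR, FastQC and Trim Galore. The genome build, the miRNA annotation and any use of molecular identifiers are not given in the sources used. A normalized log2 fold and a Storey q-value come from the authors' deposited table. It gives control over shWDR4, turned around here. Its marks equal a q-value under 0.001 with a 2-fold difference in all 1247 entries.

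Counts were divided by column totals (1020282 and 552913). Shares have Clopper-Pearson intervals, folds exact intervals conditional on both counts, levels exact Poisson intervals, and ratios of pairs exact conditional odds ratio intervals, all at 95% and for counting error only, as amplified reads are not independent molecules. The planned edgeR test needs values per library and was not run; edgeR 4.0.16 (R 4.3.3) gave scale factors, and scipy 1.17.1 the intervals. A 0 count was set to 3 counts over the group.

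Named entries were the members, their other arms, X cluster neighbours, miRNAs with a member's seed, the 3 nearest in log2 fold to miR-16-5p and miR-503-5p, and the entries left out of totals. Members and lists were chosen with earlier results of these data known. Base composition, motif and pair comparisons were chosen after the values were seen. Positions are from RefSeq (GRCh38.p14) and match GENCODE release 29. The authors' subset and enrichment tables were not used.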

Additional observations from a re-analysis of the deposited data

How the results depend on the processing

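The point estimates of all 7 members kept their sign with each of 5 other scalings, but the counting intervals of miR-195-5p and miR-497-5p included 0 with each scaling and that of miR-15a-5p without miR-3960, miR-6126 and miR-7704, and miR-503-5p stayed at least 2-fold higher. The family sum, at a log2 fold of -1.36, was -1.20 with the trimmed mean of M values, -1.25 with median ratios, -1.74 with upper quartiles, -1.04 with totals without miR-3960 and -0.70 without miR-3960, miR-6126 and miR-7704. In the same order miR-16-5p, which is also the median member, gave -1.26, -1.31, -1.80, -1.09 and -0.75. The sum of miR-424-5p and miR-503-5p, at 1.33, gave 1.49 with the trimmed mean, 0.95 with upper quartiles, 1.66 without miR-3960 and 2.00 without all 3. For miR-15b-5p, at -1.14, upper quartiles gave -1.52 and the last 2 scalings -0.81 and -0.47. Leaving miR-16-5p out of the family sum reversed it to 0.26, and leaving out miR-503-5p gave -1.41. These shifts follow from the change of totals or of the members summed.

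Without the 3 abundant entries, 1 member rather than 4 and 49 rather than 110 of all entries were at least 2-fold lower, and 117 rather than 91 entries were at least 2-fold higher. With the trimmed mean or without miR-3960 it was 3 members, as miR-15b-5p came within 2-fold. With minima of 20, 200 and 1 counts, all entries at least 2-fold higher numbered 151, 48 and 402 against 91. Lower ones numbered 154, 68 and 219 against 110. Members at least 2-fold lower numbered 4, 3 and 5, and 1 was higher with each minimum. The number tested changed with the minimum and is not given here, so these are not shares. With a minimum of 1 count, the 3 counts set for a 0 also turn some losses of rare entries into gains. By this rule miR-15a-3p, with 2 counts in control and 0 in shWDR4, scored 2.77-fold higher. The scalings were applied to all entries after seeing the data. No member had a 0, so another value for 0 changed none of them.

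Leaving out single repeats was not possible with joined columns. No paired analysis was possible because the columns hold no value per library. Depth limits miR-15a-5p, miR-195-5p, miR-497-5p, miR-450a-5p and the passenger arms, where 3 counts are the floor.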
